A study of Mus musculus with 6 samples.

Results

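The genes described here are 9 of the mouse PARP family and the ubiquitin ligase gene Dtx3l: Parp1, Parp2, Parp3, Parp8, Parp9, Parp10, Parp11, Parp12, Parp14 and Dtx3l. These 10 genes were taken from the family by name, and the choice was made with their differences between induced and uninduced arrays already known, so they count as chosen by the values reported here. Their values are therefore given as a description, with no p-value, and counts of members past a threshold stand beside the share of all genes without being read as evidence. Of the 10 members, 9 had a probe set of their own among the 18193 genes measured, with 17 probe sets in all. The platform table assigns the only probe set listed for Parp10 to Plec as well, so Parp10 was not analysed here. The working label of macro-domain PARPs fits only Parp9 and Parp14 of the PARP members, since the others lack the macro domain that binds ADP-ribose.

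The arrays came from Ba/F3, a mouse pro-B cell line that needs interleukin-3 to grow. All cells, the controls included, carried a doxycycline-switched fusion of the scaffold protein SPAG9 with the tyrosine kinase JAK2 (SPAG9-JAK2), delivered with a retroviral Tet-On system. The induced group (3 arrays) received 500 ng/ml doxycycline and the uninduced group (3 arrays, called mock by the submitters) received none. RNA was taken after 48 hours from both groups. No array held doxycycline-treated cells without the fusion, so the drug and the fusion cannot be told apart.

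PARP enzymes take ADP-ribose from NAD and attach it to proteins. PARP1 and PARP2 bind broken DNA and build long ADP-ribose chains that draw in repair factors, whereas most other members attach a single unit. Several of the single-unit enzymes are known as interferon-stimulated genes with antiviral roles, and PARP9 is known to work as a complex with DTX3L, a ubiquitin ligase of the Deltex family. In cells with an overactive JAK kinase, STAT factors enter the nucleus and bind gamma-activated sites, and together with IRF9 they bind interferon-stimulated response elements.

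Parp14, Dtx3l and Parp9 lie next to each other on chromosome 16 in the RefSeq gene table of GRCm38.p6, with no other measured gene between them. Promoters were available for 7 of the 10 members (8 annotated starts, Parp11 having a second). Parp9, Parp10 and Parp14 had none, so the search does not cover the members with the largest differences. Each promoter covers 300 bases, 250 before and 50 after the start. The promoters are shown as a description, and whether the members differ from other genes in them was not tested. On both strands, 3 motifs were searched: the response element core GAAANNGAAA, the gamma-activated site TTCNNNGAA and the wider spacing TTCNNNNGAA that STAT6 is known to favour. Among 32851 promoters of this length in the table, 3.44% held the first, 8.30% the second and 6.95% the third. Of the 7 members 2 held any of them, Parp11 and Dtx3l. The share of all promoters with any of the 3 was not computed, so nothing is read from this count. The first annotated start of Parp11 has a response element core, on the opposite strand, from base -44 to base -35, and a gamma-activated site from -37 to -29, so that the matches overlap. The Dtx3l promoter has the wider spacing from base 35 to base 44, after the start, and none of the 3 motifs before it. In the promoters of Parp1, Parp2, Parp3, Parp8 and Parp12, and at the second start of Parp11, none of the 3 was found. The runs below are from RefSeq on GRCm38.p6, 5′ to 3′ on the gene's strand, with motif matches in capitals. They are the bases before the Parp11 start (chr6:127446590-127446839, plus strand), those before the Dtx3l start (chr16:35939028-35939277, minus strand), the stretch with the Dtx3l match (chr16:35938978-35939007, minus strand) and, for contrast, those before the start of the DNA repair gene Parp2 (chr14:50807666-50807915, plus strand).
Parp11: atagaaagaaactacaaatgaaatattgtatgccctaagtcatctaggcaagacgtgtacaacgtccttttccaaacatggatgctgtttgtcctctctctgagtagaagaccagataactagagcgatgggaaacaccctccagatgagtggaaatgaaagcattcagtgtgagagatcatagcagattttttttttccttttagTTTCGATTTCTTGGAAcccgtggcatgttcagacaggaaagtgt
Dtx3l, before the start: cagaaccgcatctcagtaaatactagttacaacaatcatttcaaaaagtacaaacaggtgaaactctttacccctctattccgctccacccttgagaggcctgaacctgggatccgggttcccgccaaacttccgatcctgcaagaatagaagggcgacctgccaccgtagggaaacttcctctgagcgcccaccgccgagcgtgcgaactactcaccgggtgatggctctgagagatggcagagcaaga
Dtx3l, after the start: aacaaggagggaccTTCTGGGGAAtcgaaa
Parp2: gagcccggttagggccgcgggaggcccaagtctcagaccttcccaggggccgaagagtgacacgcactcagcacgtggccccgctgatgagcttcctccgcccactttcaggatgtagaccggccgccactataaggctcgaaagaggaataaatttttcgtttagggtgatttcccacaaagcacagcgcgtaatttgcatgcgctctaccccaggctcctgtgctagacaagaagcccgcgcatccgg

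Values are signal intensities on a linear scale, and differences are those of log2(signal + 16) between induced and uninduced arrays, which understate the change of dim probe sets. Uninduced replicate 1 stood apart. It correlated with uninduced replicates 2 and 3 at r = 0.963 and 0.964 across genes, against 0.983 between those and 0.972 to 0.982 among the induced arrays, and with the induced arrays it correlated at 0.965 to 0.971, above its values with its own group. For that reason differences are also given for the replicate 1 arrays alone and for replicates 2 and 3. The transcripts of Jak2 and Spag9 differed by -0.54 and -0.92 between induced and uninduced cells. In the replicate 1 arrays these differences were 0.28 and -0.0016, and in the others -0.96 and -1.37. No source used here says whether the mouse probe sets reach the fusion. Of the 9 measured pro-B markers, Ptprc and Cd79b were clearly measured, while Cd79a, Ebf1, Rag1 and Rag2 lay at or below the median of 19 liver and brain genes that stood for silent genes. Pax5, Vpreb1 and Igll1 had means over all arrays above the 90th percentile of that list, with some arrays of each below it. All 3 interleukin-3 receptor genes were above the 90th percentile of that list. Granulocyte and monocyte markers gave a summed signal of 416 to 1244 on induced and 1138 to 3086 on uninduced arrays over 8 genes. In 6 of them every induced array was below every uninduced one, against 13.4% of all genes. The part of these markers in the results was not tested. Summed signals were 111 to 149 and 123 to 170 for 4 T cell genes, and 117 to 136 and 97.2 to 130 for 5 fibroblast genes. With 3 arrays a group, the number of arrays limits the precision, and in bulk RNA fewer cells with a transcript and less RNA per cell cannot be told apart.

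The members with the largest differences were the chromosome 16 genes Parp9 and Parp14, followed by Parp11 and Dtx3l. Parp9 encodes a macro-domain protein with little or no transferase activity of its own, which partners DTX3L. Its probe set 1416897_at gave signals of 2480, 3872 and 2729 on the induced arrays and 759, 466 and 468 on the uninduced arrays, in the order of replicates 1 to 3. Every induced array lay above every uninduced one, and among the uninduced arrays replicate 1 was the highest. The mean was 3027 ± 742 (SD, n = 3) in induced and 564 ± 169 (SD, n = 3) in uninduced cells, a ratio of 5.36. On the log2 scale the difference was 2.40 ± 0.28 (SE of the fit over all probe sets with 1 symbol), the 38th largest increase of the 18193 genes. The replicate 1 arrays differed by 1.69 and those of replicates 2 and 3 by 2.76, and the difference was 2.63 without uninduced replicate 1.

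Parp14 encodes a transferase with macro domains that is known as a cofactor of STAT6. Its brighter probe set, 1451564_at, gave 1764, 2064 and 1522 on the induced arrays and 542, 370 and 385 on the uninduced arrays. The groups did not overlap, and uninduced replicate 1 was again the highest of its group. Means of 1783 ± 272 and 432 ± 95.1 (SD, n = 3 each) gave a ratio of 4.12 and a log2 difference of 2.01 ± 0.22, the 56th largest increase. A dimmer probe set, 1432548_at, gave 175, 83.4 and 78.4 against 34.1, 38.8 and 30.3, a difference of 1.27 ± 0.30. Here induced replicate 1 was the highest of all arrays, and the uninduced mean of 5.65 on the log2 scale lay below the 90th percentile of the silent genes, 5.85, so the smaller size of this difference is uncertain. The brighter probe set differed by 1.67 in the arrays numbered 1 and by 2.18 in the others, the dimmer by 1.94 and 0.94, so that the pairs of arrays ordered the probe sets differently.

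Dtx3l encodes the ubiquitin ligase partner of PARP9. Its probe set 1439825_at gave 2459, 2644 and 2104 on the induced arrays and 1129, 1302 and 1241 on the uninduced arrays. Its other probe set, 1435208_at, gave 2312, 2503 and 2103 against 1131, 1148 and 1152. In both the groups were separate, and the ratios of the means were 1.96 and 2.02. The log2 differences, 0.96 ± 0.17 and 0.998 ± 0.160, differed from each other by less than either SE. Unlike for Parp9 and the brighter Parp14 probe set, uninduced replicate 1 was not the highest of its group in either probe set. It lay 0.17 and 0.02 below the mean of uninduced replicates 2 and 3 on the log2 scale, where Parp9 and the brighter Parp14 probe set were 0.68 and 0.50 above it. The Dtx3l differences were accordingly 1.11 and 1.02 in the arrays numbered 1, and 0.88 and 0.99 in the others.

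Parp11 encodes a single-unit transferase with a WWE domain, a fold that binds ADP-ribose chains. Probe set 1434139_at gave 1063, 1457 and 1158 on the induced arrays against 682, 490 and 534. Probe set 1444029_at gave 166, 197 and 142 against 60.7, 46.6 and 52.4. Both separated the groups, with log2 differences of 1.09 ± 0.21 and 1.41 ± 0.19. Uninduced replicate 1 was the highest uninduced array in both. The brighter probe set differed by 0.63 in the arrays numbered 1 and by 1.32 in the others, and by 1.22 without uninduced replicate 1.

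**Figure D1:**
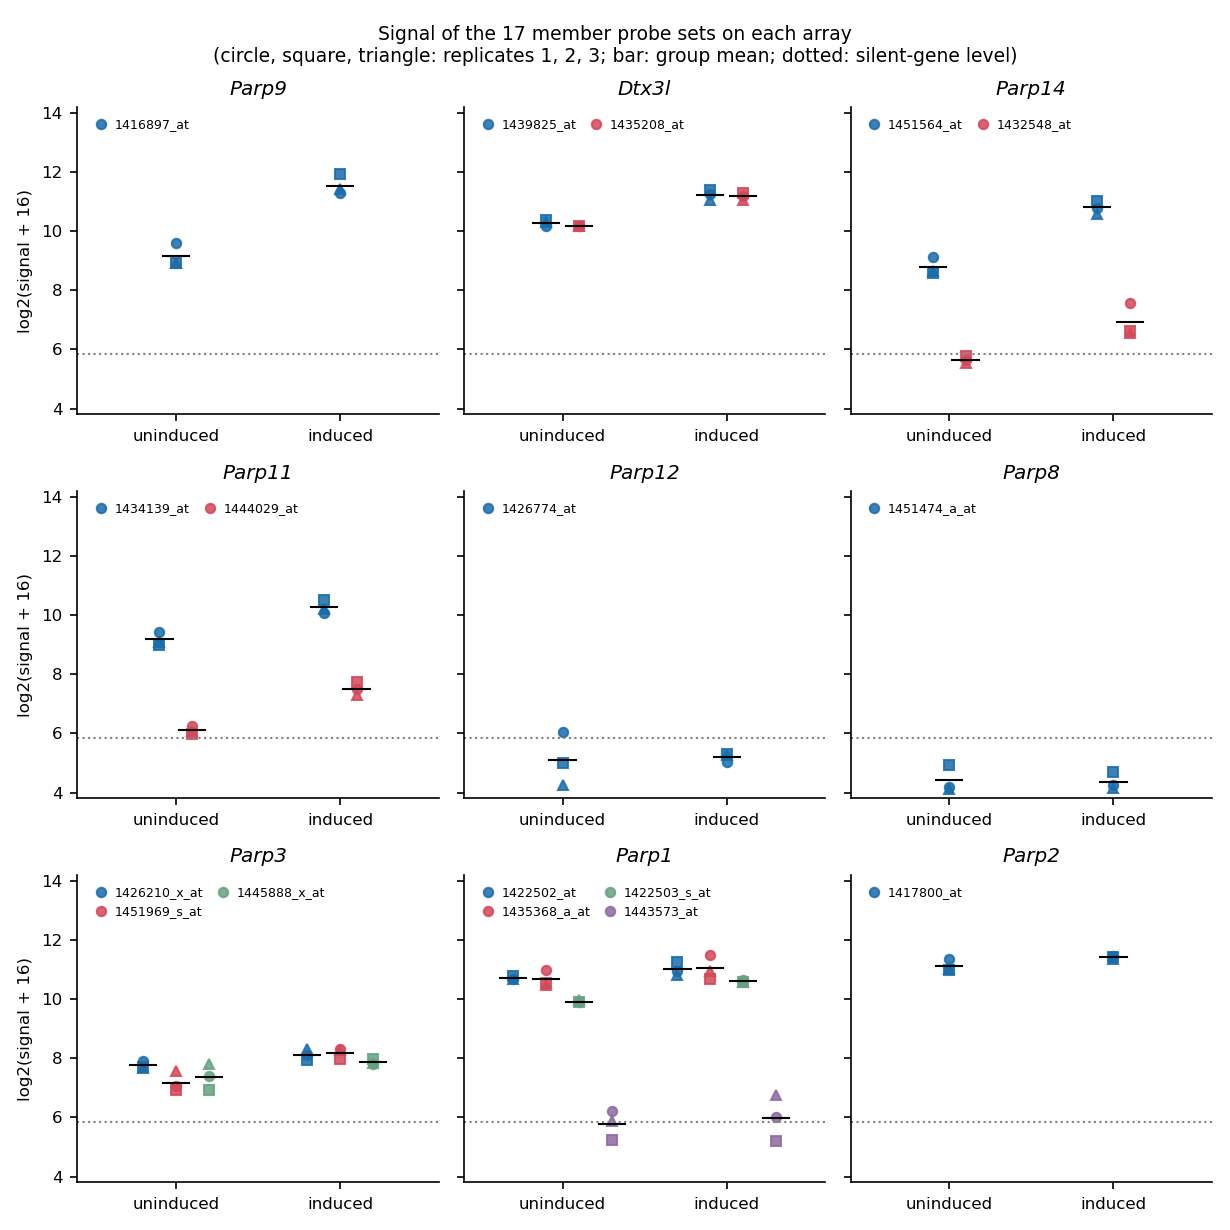
Each panel plots log2(signal + 16) of a member's probe sets (colours) on the 3 uninduced and 3 induced arrays, with symbols for the replicate number, bars for group means and a dotted line at 5.85, the upper level of silent genes. Within each probe set of Parp9, Dtx3l, Parp14, Parp11, Parp3 and Parp2 the induced points lie above the uninduced points. The same holds for 1422502_at and 1422503_s_at of Parp1. Parp8 has all its points and Parp12 all but uninduced replicate 1 below the line.

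Parp8 and Parp12 gave too little signal for a difference to be read. Parp12 encodes a zinc-finger and WWE-domain transferase that restrains the replication of some RNA viruses. Its only probe set, 1426774_at, gave 17.0, 23.7 and 22.7 on the induced arrays and 50.3, 15.9 and 3.28 on the uninduced arrays. The uninduced arrays spanned the induced ones, the difference was 0.10 ± 0.43, and it ran from -1.01 in the arrays numbered 1 to 0.66 in the others. Parp8, a little-studied single-unit transferase, gave from 1.70 to 9.79 on induced and from 1.41 to 14.5 on uninduced arrays with probe set 1451474_a_at, a difference of -0.05 ± 0.28. At these signals a difference was not detectable, which does not show that none exists.

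For Parp3, Parp1 and Parp2, the members that respond to broken DNA, the probe sets that stood for the gene differed by 0.35 or less. The other probe sets of Parp3 and Parp1 gave from 0.21 to 1.01. For Parp3, which works with the end-joining machinery, 3 probe sets gave 228 to 305, 235 to 306 and 206 to 238 on induced arrays. On uninduced arrays they gave 186 to 226, 105 to 172 and 106 to 205. All 3 had every induced array above every uninduced one, with differences of 0.35 ± 0.19 (1426210_x_at), 1.01 ± 0.23 (1451969_s_at) and 0.49 ± 0.25 (1445888_x_at). The suffixes x and s mark probe sets whose probes can match more than 1 transcript. The probe set with the highest log2 mean stood for the gene and gave the smallest difference, while 1451969_s_at gave one as large as those of Dtx3l.

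Parp1, the main sensor of strand breaks, had 4 probe sets. The one with the highest log2 mean, 1422502_at, gave 1972, 2451 and 1796 on induced and 1623, 1733 and 1646 on uninduced arrays, a ratio of 1.24 and a difference of 0.30 ± 0.18. The groups were separate, but the lowest induced array was only slightly above the highest uninduced one. Probe set 1422503_s_at had the tightest replicates, 1574, 1522 and 1524 against 933, 937 and 977, and a larger difference of 0.69 ± 0.15. Probe set 1435368_a_at overlapped (0.37 ± 0.27), as did 1443573_at (0.21 ± 0.44), whose means of 5.99 and 5.78 on the log2 scale are close to the silent-gene level. Parp2, which shares the break-sensing role, gave 2808, 2730 and 2630 on induced and 2591, 2020 and 2085 on uninduced arrays with probe set 1417800_at. Its groups were separate by a small gap, with a ratio of 1.22 and a difference of 0.29 ± 0.17, and the difference was 0.12 in the arrays numbered 1 against 0.38 in the others. By rank Parp3, Parp1 and Parp2 stood at 3164, 3729 and 3814 among the 18193 genes ordered from the largest increase.

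**Figure D2:**
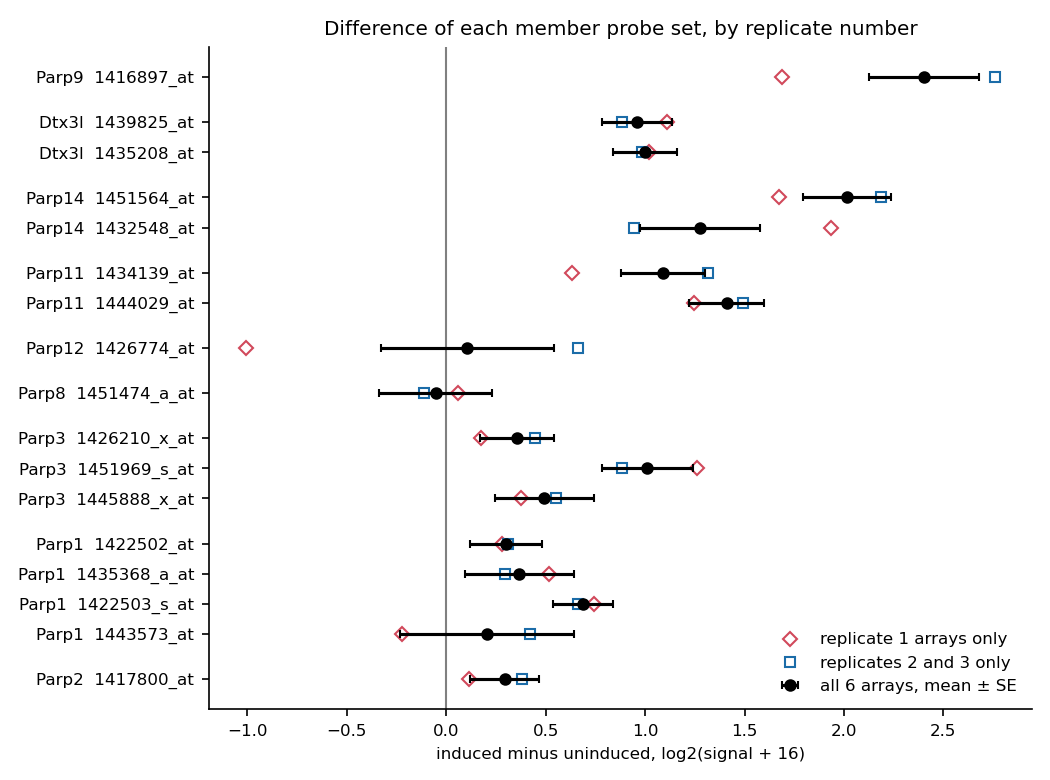
Points give the induced minus uninduced difference of log2(signal + 16) for each of the 17 probe sets over all 6 arrays, with bars for the SE of the fit over all probe sets with 1 symbol, and open symbols give it for replicate 1 arrays and for replicates 2 and 3. Parp9 has the largest difference (2.40) and Parp12 the widest split between replicate numbers (-1.01 and 0.66).

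As counts, 2 of the 9 measured members (Parp9 and Parp14) were higher at an adjusted p under 0.05 over all genes in limma, where 0.115% of all genes were, and 0 were lower, where 0.0715% of all genes were. Before adjustment 4 members were higher at p under 0.05, Parp9, Parp14, Parp11 and Dtx3l, where 7.14% of all genes were. For 7 of the 9 every induced array was above every uninduced one, against 10.7% of all genes, and for 0 of the 9 was every induced array below, against 13.4%. The median log2 difference was 0.35 over the 9 members and -0.06 over all genes. Because the members were chosen with this contrast known, nothing is read from these shares. With the replicate number as a block 0 members passed. None passed without induced replicate 1, 2 or 3 or without uninduced replicate 2 or 3. Without uninduced replicate 1, 4 members passed, but calls were commoner over all genes too. There 586 genes were higher and 867 lower, against 21 and 13 in the main fit.

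None of the measured neighbours of the chromosome 16 genes had a positive difference as large as that of Dtx3l. The 5 nearest measured genes on each side were taken by position alone, after the data had been seen. Of these 10 genes, 0 passed the threshold in limma and 4 had an unadjusted p under 0.05, all 4 of them lower, where 10.3% of all genes were: Slc49a4 (-1.22 ± 0.31, SE), Fam162a (-1.21 ± 0.35), Sema5b (-0.68 ± 0.24) and Hspbap1 (-0.48 ± 0.16). Hspbap1 is the nearest measured gene beyond Parp14. On the other side of Parp9 the nearest, Kpna1, which encodes an importin, stood at 0.27 ± 0.16. The largest positive difference among the neighbours was 0.39, of Csta1, whose mean of 4.44 on the log2 scale is below the silent-gene median. In 1 of the 10 every induced array lay above every uninduced one (10.7% of all genes), and in 5 below (13.4%).

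**Figure D3:**
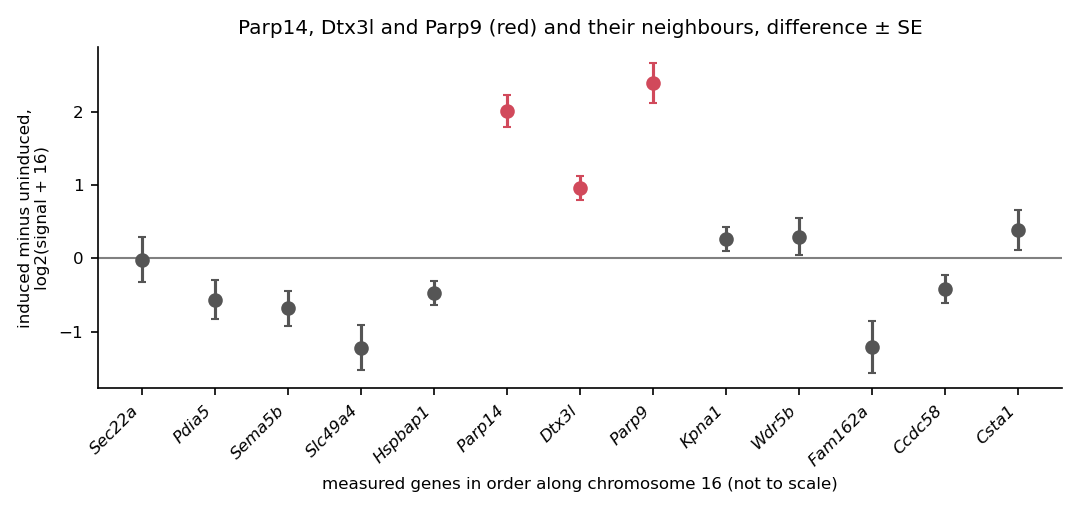
The difference of log2(signal + 16) between induced and uninduced arrays, with the SE of the fit with 1 probe set a gene, is plotted for Parp14, Dtx3l and Parp9 and for the 5 measured genes on each side, in their order on chromosome 16. The members stand at 2.01, 0.96 and 2.40, and the neighbours lie between -1.22 and 0.39.

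The 7 measured ADP-ribosyltransferases outside the members all had negative differences, with a median of -0.58 against -0.06 over all genes. The members and this list were both chosen with earlier results of these data known, so the contrast between them is only a description. None of the 7 passed the threshold in limma, in either direction, and 4 were lower at an unadjusted p under 0.05, where 10.3% of all genes were. Parp6 stood at -1.22 ± 0.36 (SE) and Parp16, an enzyme of the endoplasmic reticulum, at -1.11 ± 0.44. The tankyrases Tnks and Tnks2, which modify axin and telomere proteins, stood at -0.58 ± 0.18 and -0.54 ± 0.15. Tiparp, a target of the aryl hydrocarbon receptor, stood at -0.63 ± 0.44, Parp4 at -0.28 ± 0.15, and Zc3hav1, an antiviral zinc-finger member without transferase activity, at -0.28 ± 0.20. By the probe set that stood for the gene, in 5 of the 7 every induced array was below every uninduced one, against 13.4% of all genes. The other probe sets of Parp4, Parp6, Tnks and Tnks2 did not show this separation. Tiparp and Zc3hav1 overlapped between groups, and dimmer probe sets of Parp6, Tnks and Zc3hav1 gave positive values (up to 0.17, 0.57 and 0.72). For Parp16 and Tiparp the difference lay with replicates 2 and 3: it was -0.05 and 0.17 in the arrays numbered 1, and -1.64 and -1.02 in the others. Without uninduced replicate 1 the list had 3 genes lower past the threshold in limma, Parp16, Parp6 and Tiparp. In that setting 867 genes were lower over all genes, against 13 in the main fit.

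The enzymes that remove ADP-ribose and the macro-domain proteins that bind it had a median difference of -0.11 over 11 measured genes, and 0 passed in either direction in limma (1 at an unadjusted p under 0.05, where 17.4% of all genes were in either direction). That 1 was Macroh2a2, a histone variant with a macro domain, at 0.62 ± 0.21, but its means of 5.34 and 4.72 on the log2 scale are below the silent-gene level. Chd1l, a chromatin remodeller with a macro domain, stood at 0.47 ± 0.23 and Nudt16, a hydrolase, at -0.37 ± 0.21, with -0.65 for its other probe set. Parg, which cuts ADP-ribose chains, stood at -0.14 ± 0.15, and is named outside the rule for its role. Without uninduced replicate 1, where 586 of all genes were higher past the threshold, Chd1l passed (adjusted p of 0.0498 in limma). Of the Deltex ligases besides Dtx3l, 0 of 4 passed in limma and 2 had an unadjusted p under 0.05, against 17.4% of all genes. Dtx2 stood at 0.51 ± 0.19, while Dtx3, Dtx1 and Dtx4 stood at -0.79 ± 0.24, -0.74 ± 0.63 and -0.69 ± 0.67, a median of -0.72. Dtx1 and Dtx4 differed by 0.26 and 0.62 in the arrays numbered 1 and by -1.25 and -1.34 in the others, and for Dtx1 induced replicate 2, at a signal of 1.83, was far below the other arrays. Their other probe sets gave -0.05 for Dtx1, below the silent-gene level, and -1.60 for Dtx4, with every induced array below every uninduced one. That of Dtx2 gave 0.53 with separate groups. Without uninduced replicate 1, Dtx3 and Dtx4 were lower past the threshold in limma, as were 867 of all genes.

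Repair genes that act with PARP1 had a median of 0.06 over 9 measured genes, and 0 passed in limma (2 at an unadjusted p under 0.05, against 17.4% of all genes). Fen1, the flap endonuclease of base excision repair and of lagging-strand replication, stood at 1.24 ± 0.26, and its other probe set at 1.22, with every induced array above every uninduced one. Its adjusted p was 0.121 in limma and 0.0183 without uninduced replicate 1, where 586 of all genes were higher past the threshold. Hpf1, the cofactor that directs PARP1 and PARP2 to serine, stood at 0.54 ± 0.17 and Apex1, an endonuclease, at 0.35 ± 0.22, with 0.67 and 0.28 for its other probe sets. Xrcc1 and Lig3, the scaffold and ligase that ADP-ribose recruits, were named for their role and stood at 0.06 ± 0.17 and -0.12 ± 0.23. The other Lig3 probe sets above the silent-gene level gave 0.37, 0.21 and 0.77, the first and the last with separate groups.

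Of the genes that make or consume NAD, the substrate of the PARP transferases, 0 of 13 measured passed in limma and 3 had an unadjusted p under 0.05, against 17.4% of all genes. The median difference was -0.13. Nadsyn1, which completes NAD synthesis from nicotinic acid, stood at 0.51 ± 0.16 and Nmnat1, the nuclear NAD synthase, at 0.46 ± 0.17, both with separate groups. The other Nmnat1 probe set gave 0.22 with overlapping groups. Bst1, an NAD-consuming surface enzyme, stood at -0.78 ± 0.32, with means below the silent-gene level. It was lower past the threshold in limma without uninduced replicate 1, as were 867 of all genes. Nampt, which makes the NAD precursor from nicotinamide, was named for its role and stood at 0.43 ± 0.28 with overlapping groups.

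Among the STAT and IRF factors related to PARP9 and PARP14, 1 of 5 measured genes was higher past the threshold, against 0.115% of all genes. This list too was chosen with earlier results of these data known, so its counts are a description. The gene past the threshold was Irf1, a transcription factor of interferon responses, which rose by 2.28 ± 0.22 at an adjusted limma p of 0.0396. This call was lost with the replicate number as a block (adjusted p of 0.198 in limma) and without induced replicate 1, 2 or 3 or uninduced replicate 2 or 3 (adjusted p from 0.0960 to 0.233 in limma). Stat2 and Irf9, factors of interferon signalling, stood at 1.42 ± 0.24 and 1.04 ± 0.18, with an adjusted limma p of 0.0897 each. In the probe sets that stood for these 3 genes every induced array lay above every uninduced one, against 10.7% of all genes. The other Stat2 probe set, a dimmer one, stood at 0.996 with overlapping groups. Stat3 stood at 0.29 ± 0.24 with overlapping groups, and a probe set about as bright at 0.57 with separate groups. Stat6, the known partner of PARP14, stood at -0.56 ± 0.21, with every induced array below every uninduced one. Its dimmer probe set stood at -0.39 with overlapping groups. The list's median was 1.04.

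**Figure D4:**
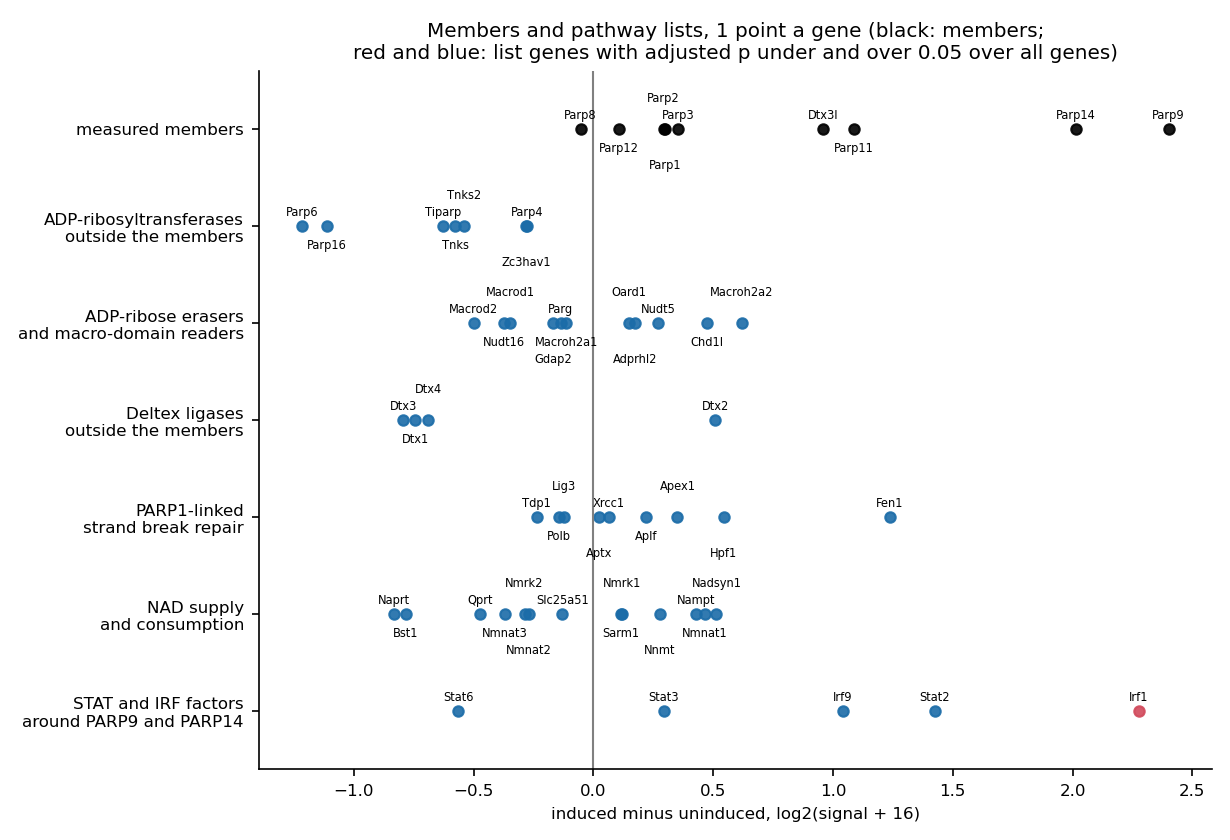
Each point is the induced minus uninduced difference of log2(signal + 16) of a gene, for the 9 measured members (black, whether or not past the threshold) and 6 gene lists, with list genes under an adjusted p of 0.05 in red and the others in blue. All 7 transferases outside the members lie below 0, and of the list genes Irf1 at 2.28 is the only one in red. The members and the lists were chosen with earlier results of these data known.

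Likeness of pattern was taken as Pearson's r of log2(signal + 16) over the 6 arrays, among 8788 genes at or above the median level. Members and provisional gene symbols were left out, so members could not appear as each other's nearest genes. It is a description, since the 6 arrays are 3 of each group and any gene that separates them correlates. The genes most like Parp9 were Gbp7 (r = 0.999) and Igtp (r = 0.999), GTPases of interferon-induced host defence, and Oasl2 (r = 0.999), an oligoadenylate synthetase-like gene, with differences of 2.62, 3.93 and 4.45. Those most like Parp14 were Rbks (r = 0.998), Psmb10, an immunoproteasome subunit (r = 0.998), and Irf1 (r = 0.997), with differences of 0.49, 2.14 and 2.28. Those most like Dtx3l were Rnaseh2c (r = 0.994), Ehd4 (r = 0.994) and Senp1 (r = 0.991), whose differences were 0.33, 0.28 and 0.39. The nearest genes of Parp9 and Dtx3l thus differed, as did the place of uninduced replicate 1 in those members. For Dtx3l the likeness rests on probe set 1439825_at alone. Its other probe set, 1435208_at, with closer uninduced signals (1131, 1148 and 1152), was not compared.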

How the data were processed

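The authors deposited linear signal intensities for 6 Affymetrix arrays, computed with Affymetrix Expression Console 1.4.1 per the submitters' processing notes. How probes were summarised is not given in these sources. The trimmed mean, without 2% at each end, was 500 on every array (500.003). From them log2(signal + 16) was computed with no further scaling. The 64 control probe sets were left out, and 34945 of the rest have 1 gene symbol in the platform table. The probe set with the highest mean stood for its gene. Groups were compared with limma 3.58.1 in R 4.3.3 (lmFit, eBayes, two-sided, Benjamini-Hochberg over 18193 genes, 4 residual degrees of freedom, threshold 0.05), tested on simulated data. Figures used matplotlib 3.10.9. With 3 arrays a group, an exact permutation p is at least 0.1, so none was computed. The submitters describe triplicate cultures, and nothing says that they were separate experiments, so the p-values cover the spread among these cultures alone, which may be technical.

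The members and all gene lists were chosen with earlier results of these data known. The text names every member and probe set, all genes of lists with up to 7 measured genes, of other lists those past the threshold and the 3 with the smallest p, and for Parp9, Dtx3l and Parp14 the 3 genes most alike. Genes named for their role or position are said to be so. The silent-gene level is that of 19 liver and brain genes (median 5.30 and 90th percentile 5.85 on the log2 scale).

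Within-group deviations of same-numbered arrays correlated at 0.36, 0.19 and 0.33 across genes at or above the median level. This meets the rule for pairing used here, over 0.1 for every pair. Differently numbered arrays correlated nearly as much for induced 2 with uninduced 3 (0.19) and induced 3 with uninduced 2 (0.30). Only number 1 is thus set apart, and a pairing of numbers 2 and 3 is not shown. The main fit left the replicate number out, and the fit with it as a block is given as an alternative. Alternatives were the replicate block, centring, quantile normalization, pseudocounts of 1 and 64, a level filter, other probe set rules, another variance prior, leaving out arrays, and replicate 1 as a batch.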

Additional observations from a re-analysis of the deposited data

How the results depend on the processing

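Parp9, Parp14, Parp11, Dtx3l, Parp3, Parp1 and Parp2 kept a positive difference under all 17 alternatives. Parp12 ranged from -0.31 (without uninduced replicate 3) to 0.58 over single arrays left out. Parp8 was 0.014 after median centring, and ranged from -0.22 to 0.21 over single arrays left out, positive without induced replicate 1 or 3 or uninduced replicate 2. Both are near the silent-gene level, where no direction can be read. Parp9 ranged from 2.21 to 2.76 and Parp14 from 1.64, with the mean of its probe sets, to 2.18.

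The counts past the threshold moved, and the cause was not tested. With the replicate block 0 genes were higher and 0 lower over all genes in limma (3269 at an unadjusted p under 0.05), 0 members and 0 STAT and IRF genes passed, and no other call changed. The same counts were 0 with a pseudocount of 1 (2807 unadjusted). Over all genes, 122 were higher and 133 lower with a pseudocount of 64, 323 and 419 with genes at or above the median level, and 237 and 313 with trended and robust variance. These 3 settings gave 4 members each (Parp9, Parp14, Parp11 and Dtx3l) and 3 STAT and IRF genes (Irf1, Irf9 and Stat2). The level filter also gave 1 transferase (Tnks2, lower) and 1 repair gene (Fen1), and the variance setting 1 repair gene. Quantile normalization and all probe sets gave 1 member each (Parp14). Lower genes were 6 with centring, which raised the share of higher calls from 61.8% to 80.6%, and 21 with the mean of probe sets. With replicate 1 as a batch, 6 genes were higher, 19 lower, and 0 members passed.

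Leaving out both arrays numbered 1 gave 524 higher and 953 lower genes, 2 transferases, 2 Deltex genes and 1 NAD gene lower, and 1 repair gene and 3 STAT and IRF genes higher. Leaving out single arrays gave 0 to 586 higher and 0 to 867 lower genes (2006 to 2224 at an unadjusted p under 0.05 where a count was 0), 0 to 4 members, 0 to 3 transferases lower, 0 to 1 eraser or reader higher, 0 to 2 Deltex genes lower, 0 to 1 repair gene higher, 0 to 1 NAD gene lower, and 0 to 2 STAT and IRF genes higher and 0 to 1 lower. All of the highest values came without uninduced replicate 1.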
